A study of Mus musculus with 6 samples.

Results

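Transcripts of 7 kinesin genes were examined in the striatum of Shank3 transgenic (TG) mice and wild-type (WT) mice. The genes were Kif5a, Kif5b and Kif5c, which encode the heavy chains of kinesin-1, Klc1 and Klc2, which encode its light chains, and Kif1a and Kif1b, which encode kinesin-3 motors. They are 7 of the 46078 genes in the deposited table, all 7 were found in it by Ensembl identifier, and all 7 passed the filter on low counts. The set was selected in part on the difference in Kif5a between the TG and WT libraries, so that difference is given here as a description without a P value, and counts of calls that include Kif5a support nothing about it.

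RNA was sequenced from the striatum of 3 TG and 3 WT mice, with 1 library per mouse. All were C57BL/6J mice aged 12 weeks, and the study's methods state that males were used. The TG mice carried an EGFP-Shank3 transgene, which encodes the postsynaptic scaffold protein Shank3 fused to a green fluorescent protein, in addition to the endogenous gene. The promoter of the transgene and the litters of the mice are not given in the sources used here. The deposited values are read counts per gene divided by a size factor for each library, called normalized read counts below. Recovered library totals lay between 27689589 and 36647626 reads.

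Kinesins are motors that act on microtubules, and many of them, among them kinesin-1 and kinesin-3, carry cargo toward the axon terminal. Kinesin-1 is a tetramer in which paired heavy chains supply the motor and paired light chains help to bind cargo. Kif5a is the neuronal heavy chain that also moves neurofilaments, Kif5b is made in nearly all tissues, and Kif5c is enriched in neurons. Kif1a carries synaptic vesicle precursors and dense core vesicles, and Kif1b carries mitochondria or vesicle precursors depending on the isoform.

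The transgene was visible in the libraries labelled TG. Shank3 had normalized read counts of 29891, 28309 and 26044 in TG replicates 1, 2 and 3 and of 13807, 12918 and 13865 in WT replicates 1, 2 and 3. Every TG library was above every WT library, with a log2 fold change of 1.05 (SE 0.06, limma, adjusted P = 7.04e-05).

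Kif5a and Kif5c are close paralogs, and their counts can be read separately only if reads can tell them apart. Their coding sequences, of 3081 and 2868 bases, were 73.2% identical after alignment. The coding stretch of 100 bases, about the length of a read, in which they were most alike within 1 exon is shown here. Stretches that cross exon junctions were not compared in this way. It lies in the N-terminal motor domain, in exon 10 of each transcript, and the letters are from the GENCODE M21 transcripts, on GRCm38. Capitals mark the positions at which the transcripts differ.
Kif5a, chr10:127243372-127243471, minus strand: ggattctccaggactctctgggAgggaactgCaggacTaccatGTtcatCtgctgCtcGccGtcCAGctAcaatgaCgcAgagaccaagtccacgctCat
Kif5c, chr2:49700994-49701093, plus strand: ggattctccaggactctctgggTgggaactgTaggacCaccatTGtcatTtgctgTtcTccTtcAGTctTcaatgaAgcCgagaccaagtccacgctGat
In this stretch 16 of 100 positions differed and 84 matched. The longest run of bases shared exactly by Kif5a and Kif5c was 23 bases, and that shared by Kif5a and Kif5b was 17 bases. No window of 100 bases was found in more than 1 of the 7 genes.

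Kif5a transcripts were fewer in every TG mouse than in any WT mouse. Kif5a (ENSMUSG00000074657, chromosome 10, 127225696 to 127263348, minus strand, GRCm38) had normalized read counts of 124228, 119926 and 127153 in TG replicates 1, 2 and 3. The WT counts were 140495, 138098 and 141296. The groups did not overlap, and the highest TG count was 7.93% below the lowest WT count. The means were 123769 ± 3635 (SD, n = 3) in TG and 139963 ± 1664 (SD, n = 3) in WT, so the TG mean was 11.6% lower. The log2 fold change was -0.18 (SE 0.06). Counting error was small beside the spread of the mice, at a coefficient of variation of 0.274% against 2.94% among TG libraries and 1.19% among WT libraries. In bulk tissue, fewer cells that make a transcript and less of the transcript per cell cannot be told apart.

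No other gene of the table overlaps the span of Kif5a in the annotation, and 0 of its 6986 windows of 100 bases occur in another gene. The count is therefore not shared with an annotated neighbour or paralog over windows of that length. Kif5a took between 0.383% and 0.449% of all counts of a library and was the gene with rank 8 by mean count.

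For the other heavy chains the TG and WT mice overlapped. Kif5c (ENSMUSG00000026764, chromosome 2, 49619298 to 49774778, plus strand) had counts of 30728, 32853 and 34593 in TG and of 33496, 33336 and 34326 in WT. TG replicate 1 was the lowest library and TG replicate 3 the highest, so the WT mice fell between the TG mice. The means were 32724 ± 1936 in TG and 33719 ± 531 in WT (SD, n = 3), with a log2 fold change of -0.04 (SE 0.06, 95% interval -0.17 to 0.08, limma, adjusted P = 0.972).

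Kif5b, the heavy chain found in nearly all tissues, had counts of 8955, 10292 and 9618 in TG and of 9827, 9739 and 9997 in WT. The TG mice again lay on both sides of the WT mice. The means were 9622 ± 668 in TG and 9854 ± 131 in WT (SD, n = 3), with a log2 fold change of -0.04 (SE 0.05, 95% interval -0.16 to 0.08, limma, adjusted P = 0.978). Kif5b (ENSMUSG00000006740, chromosome 18, 6201002 to 6242174, minus strand) shares 142 exon bases with the antisense gene Gm17036, which was listed at 0 in every library. In addition, 128 of its 8155 windows of 100 bases (1.57%) also occur in another gene.

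Both light chains overlapped between the groups. Klc1 (ENSMUSG00000021288, chromosome 12, 111758849 to 111807844, plus strand) had counts of 18378, 17439 and 18616 in TG and of 18219, 18574 and 18147 in WT. TG mice were both the lowest and the highest, with all WT mice between them. The log2 fold change was -0.01 (SE 0.05, 95% interval -0.12 to 0.09, limma, adjusted P = 0.989). Klc1 shares 12 exon bases with the antisense gene Xrcc3, whose mean count was 509, and the library kit does not mark strand.

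Klc2 (ENSMUSG00000024862, chromosome 19, 5107746 to 5118560, minus strand) had counts of 7045, 5851 and 6898 in TG and of 6861, 6657 and 6507 in WT. TG replicate 2 lay far below the other 5 mice, and TG replicates 1 and 3 were above every WT mouse. The log2 fold change was -0.02 (SE 0.07, 95% interval -0.17 to 0.13, limma, adjusted P = 0.989), and without TG replicate 2 it was 0.06. Among the transcript windows of Klc2, 341 of 4822 (7.07%) also occur in another annotated gene, AC124502.1, which is not in the deposited table.

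The kinesin-3 motors were at nearly equal means in both groups. Kif1a (ENSMUSG00000014602, chromosome 1, 93015464 to 93101951, minus strand) had counts of 43316, 42840 and 44801 in TG and of 42162, 44474 and 45290 in WT. WT mice were both the lowest and the highest. The log2 fold change was -0.01 (SE 0.05, 95% interval -0.13 to 0.11, limma, adjusted P = 0.993). Kif1b (ENSMUSG00000063077, chromosome 4, 149176319 to 149307693, minus strand) had counts of 30845, 31917 and 33057 in TG and of 30228, 32119 and 32083 in WT. It was the member with a higher TG mean, at a log2 fold change of 0.02 (SE 0.05, 95% interval -0.10 to 0.14, limma, adjusted P = 0.986).

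**Figure D1:**
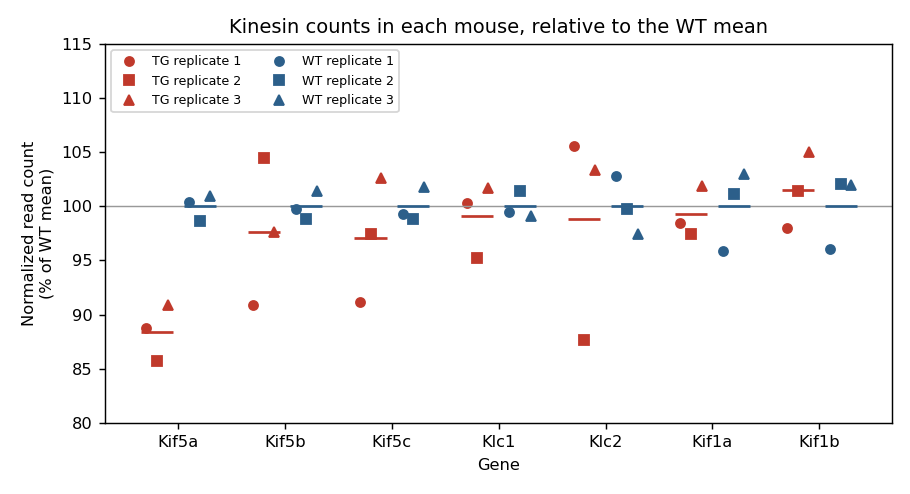
Normalized read count of each kinesin gene in each mouse, as a percentage of the WT mean of that gene, with red symbols for TG, blue symbols for WT and short lines for group means. Kif5a stands at 88.8%, 85.7% and 90.8% in the TG mice, below all WT mice, whereas the TG symbols of the other 6 genes reach into or across the WT range.

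As a set, the kinesin genes showed 1 non-overlapping member, Kif5a. Over all 17605 genes tested, 889 (5.05%) had every TG library below every WT library and 891 (5.06%) had every TG library above, and 0 of the 7 kinesin genes were in the second class. Because Kif5a entered the set for this difference, nothing can be read from the count of 1. Limma called 0 of the 7 at an adjusted P of 0.05, where it called 1 of all genes (0.00568%), which was Shank3. At an unadjusted P of 0.05, 410 genes (2.33%) were lower and 348 (1.98%) were higher in TG, and 0 of the other 6 kinesin genes were among them. DESeq2, with shrunken fold changes and a null distribution fitted to the data, called 17 genes (0.0966%), Kif5a among them and no other kinesin gene. That call uses the contrast on which the set was chosen. The median log2 fold change of the 7 was -0.02, beside -0.00 over all genes tested.

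The Kif5a difference is set here beside those of other genes with high counts, as a description only, because Kif5a was chosen for it. Of 485 genes with a mean count of at least 10000, the 5th and 95th percentiles of the log2 fold change were -0.12 and 0.10, and 4 fell by at least as much as Kif5a in log2 terms, Kif5a included. The other 3, named after their values were seen, were mt-Atp8, Pcsk1n and Camk2n1. Among the 10 genes whose mean reached 100000, however, 9 had a negative log2 fold change, with a median log2 fold change of -0.12, and 7 of the 10 are encoded by the mitochondrial genome. Kif5a had the lowest log2 fold change of these 10 and was the 1 gene of them whose groups did not overlap. The part of high abundance in the Kif5a difference was not tested.

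**Figure D2:**
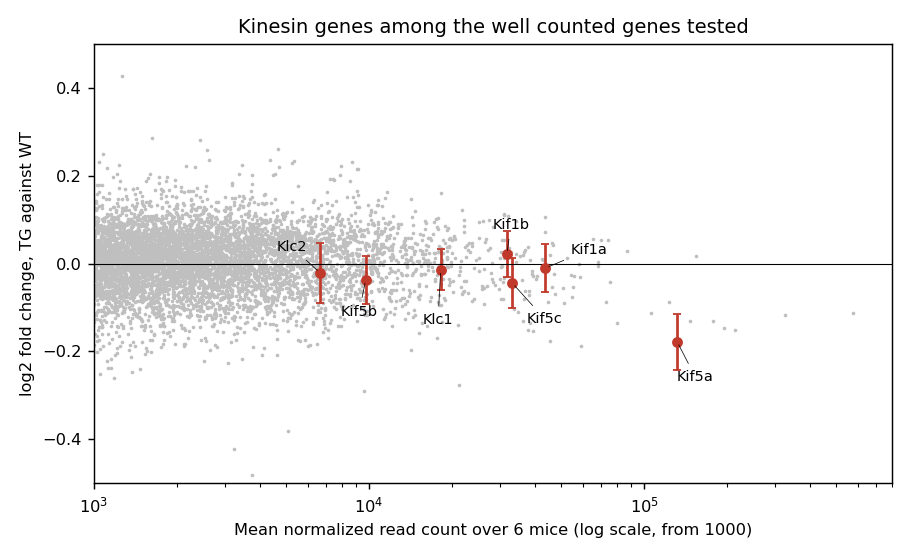
Log2 fold change of TG against WT on the vertical axis and mean normalized read count over 6 mice on a logarithmic horizontal axis, for genes with a mean of at least 1000. Grey points are all such genes within the plotted range (2 lie outside it, Shank3 at 1.05 and Ttr at 2.51), red points are the 7 kinesin genes, and bars are 1 SE. Kif5a lies at -0.18 near the right edge, where most grey points are also under 0, and the other 6 lie between -0.04 and 0.02.

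Ratios between the kinesin genes do not depend on the scaling of a library. Dividing the Kif5a count by that of Klc1 gave 6.76, 6.88 and 6.83 in TG and 7.71, 7.44 and 7.79 in WT. The ratio to Kif1a was 2.87, 2.80 and 2.84 in TG and 3.33, 3.11 and 3.12 in WT. For both partners the TG ratios lay close together and below every WT ratio. Ratios to Kif5b, Kif5c and Kif1b did not overlap between the groups either. The ratio to Klc2 overlapped, with 20.50 in TG replicate 2 against 20.48 in WT replicate 1, and TG replicate 2 was the library in which Klc2 itself was low.

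**Figure D3:**
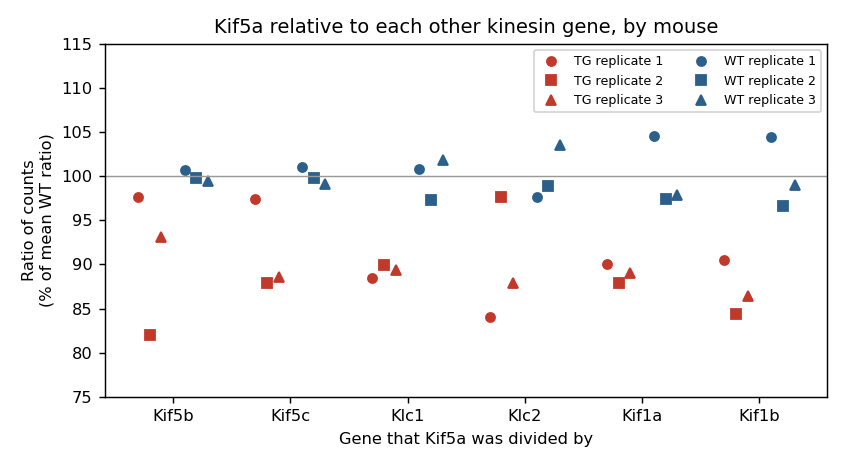
Ratio of the Kif5a count to the count of each other kinesin gene in each mouse, as a percentage of the mean WT ratio, with red symbols for TG and blue symbols for WT. TG and WT symbols are separate for 5 of the 6 partner genes, and for Klc2 TG replicate 2 lies within the WT range.

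The make-up of the kinesin-1 heavy chain pool shifted only slightly, because Kif5a dominated it. After division by exon length, Kif5a made up 76.6%, 74.4% and 75.05% of the heavy chain level in TG and 77.2%, 77.0% and 76.9% in WT. Kif5c made up 19.5% ± 0.822 in TG and 18.2% ± 0.137 in WT, and Kif5b 5.13% ± 0.405 and 4.75% ± 0.0186 (SD, n = 3). The summed heavy chain level per kb was 23494 ± 650 in TG and 25979 ± 316 in WT, without overlap, and without Kif5a it was 5788 ± 324 and 5956 ± 90.6, with overlap. The light chain sums per kb, 6054 ± 307 in TG and 6114 ± 73.1 in WT, overlapped. The ratio of heavy to light chain levels was therefore lower in TG, at 3.73, 4.04 and 3.88 against 4.24, 4.15 and 4.36 in WT. These sums and shares, like the ratios of Kif5a to the other genes, contain the Kif5a counts on which the set was chosen and carry no test.

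Per kilobase of exon, Kif5a was far above the other kinesin genes in all 6 mice. Its level was 18865 ± 1320 normalized counts per kb (SD, n = 6), rank 19 among the 17519 tested genes with an exon length. Kif1a followed at 4696 ± 131, Kif5c at 4652 ± 193 and Klc1 at 4479 ± 106. With exon length as the divisor, these 3 could not be told apart beyond their spread. Kif1a exceeded Kif5c in 3 of 6 mice (exact two-sided sign-flip permutation test, P = 0.656) and Kif5c exceeded Klc1 in 5 of 6 (exact permutation P = 0.125, adjusted over 6 neighbouring pairs 0.15).

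The remaining members formed a lower tier. Kif1b had a level of 1801 ± 57.4 per kb, Klc2 of 1605 ± 104 and Kif5b of 1220.1 ± 56.3 (SD, n = 6). Kif5a over Kif1a, Klc1 over Kif1b, Kif1b over Klc2 and Klc2 over Kif5b each held in 6 of 6 mice, with mean log2 differences of 2.00, 1.31, 0.17 and 0.39. Each reached the smallest P that 6 mice allow in the exact permutation test, 0.0312, or 0.0469 after adjustment over the 6 pairs. The order came from these same mice, and exon length is a fixed divisor. The P values therefore describe how steady a difference was across mice and do not cover the choice of length. The ranking of the middle genes depended on the length used. With the longest transcript in place of all exons, Klc1 moved to second place, and Kif5a stayed first and Kif5b last. Klc1 then exceeded Kif1a by a mean log2 difference of 0.45, and Kif1a exceeded Kif5c by 0.14, each in 6 of 6 mice (exact permutation P = 0.0312, also after adjustment).

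**Figure D4:**
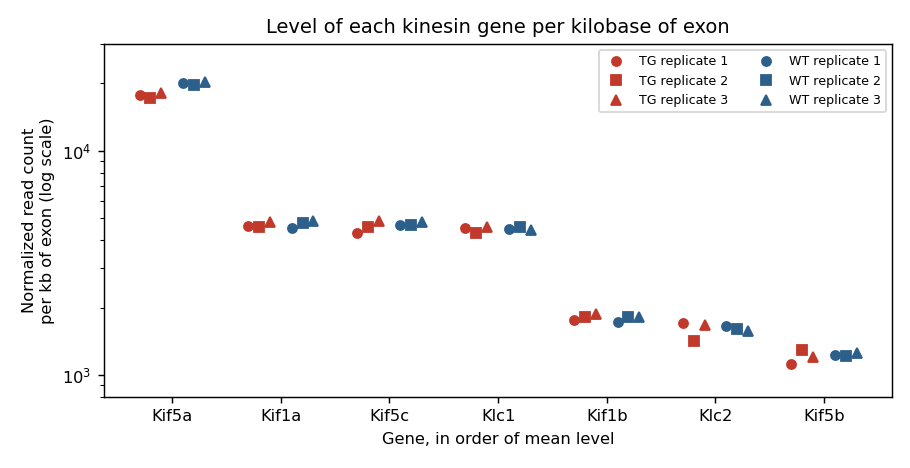
Normalized read count per kb of exon on a logarithmic axis for each kinesin gene in each mouse, in order of mean level, with red symbols for TG and blue symbols for WT. Kif5a lies between 17157 and 20214, Kif1a, Kif5c and Klc1 form a middle group with means between 4479 and 4696, and Kif1b, Klc2 and Kif5b lie below 2000.

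Across the 6 mice the Kif5a count had Pearson correlations of 0.16 with Kif5b, 0.48 with Kif5c, 0.41 with Klc1, 0.33 with Klc2, 0.26 with Kif1a and -0.19 with Kif1b. None of the other kinesin genes therefore followed the Kif5a profile closely. Of 12831 other genes with a mean of at least 100, those most like Kif5a over the 6 libraries were Cav2 (r = 0.996), Zbtb7b (0.980), Patz1 (0.976), Fars2 (0.975) and Tmem147os (0.975). Their log2 fold changes ranged from -0.30 for Tmem147os and -0.28 for Cav2 to -0.09 for Fars2. All 6 libraries and the group difference are shared by these correlations, which are given as a description.

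None of the genes near Kif5a on chromosome 10 passed the test. The 14 tested genes within 100 kb had log2 fold changes between -0.13 and 0.11, and the smallest unadjusted P among them was 0.091, for Mbd6 (limma, adjusted P = 0.971). The adjacent Dctn2, which encodes a dynactin subunit and starts at 127266368, had a log2 fold change of 0.03.

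The rest of the transport machinery was examined in 6 lists, which held 119 tested genes. Limma called 0 of the 119, as did DESeq2, edgeR and limma-voom, and 2 were lower and 5 higher at an unadjusted P of 0.05, where 2.33% and 1.98% of all genes were. In 5 genes (4.20%) the TG libraries lay below the WT libraries, and in 8 (6.72%) above, near the 5.05% and 5.06% of all genes. The median log2 fold change was 0.01. The log2 fold change was negative in 49 of them and positive in 70.

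Among 25 tested neuronal and ciliary kinesins outside the set, 13 had lower and 12 higher TG means, with a median log2 fold change of -0.03. Kifc2, a minus-end-directed motor and the most abundant of them, had a mean count of 14041 and a log2 fold change of -0.07 (SE 0.09). Kifap3, the accessory subunit of the kinesin-2 motor, had a mean of 9245 and a log2 fold change of 0.10 (SE 0.05), with all TG libraries above all WT libraries. Kif2a, which depolymerizes microtubules, had counts of 2481, 2359 and 2436 in TG and of 2165, 2209 and 2118 in WT, at 0.16 (SE 0.05, unadjusted P = 0.00501, limma, adjusted P = 0.971). Its direction was opposite to that of Kif5a. Kif6 was low in both groups, with 78.1, 59.6 and 74.98 counts in TG and 83.5, 95.4 and 99.2 in WT, and had a log2 fold change of -0.39 (SE 0.16, unadjusted P = 0.0303, limma, adjusted P = 0.971).

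The mitotic kinesins, which serve dividing cells, were sparse in this tissue, at summed counts between 915 and 1163 per library. Of 14 tested, 11 had lower TG means, and the median log2 fold change was -0.18. Kif22 and Kif11, the most abundant, had mean counts of 147 and 122 and log2 fold changes of -0.05 (SE 0.17) and -0.25 (SE 0.15). Cenpe, a kinetochore motor, had 96.1, 82.1 and 80.8 counts in TG and 99.6, 118 and 106 in WT (log2 fold change -0.32, SE 0.14, unadjusted P = 0.0408, limma, adjusted P = 0.971). In 3 of the 14, Cenpe among them, every TG library was below every WT library, where 5.05% of all genes tested were. In 0 of the 14 every TG library was above. No mitotic kinesin passed the adjusted threshold.

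Cytoplasmic dynein, the motor of transport toward the cell body, and its activator dynactin had no gene past the adjusted threshold. Of 12 dynein genes 8 had higher TG means, and of 12 dynactin genes 10 had, with median log2 fold changes of 0.03 and 0.02. The log2 fold changes ranged from -0.51 to 0.14 over the dynein genes and from -0.048 to 0.078 over the dynactin genes. The value of -0.51 came from a gene with a mean count of only 31.4 (SE 0.32). Dync1h1, the dynein heavy chain, had a mean count of 25175 and a log2 fold change of 0.06 (SE 0.08), and Dynll2, a light chain, had 0.02 (SE 0.05). Dync1i1, an intermediate chain of neurons, was at 0.14 (SE 0.06, unadjusted P = 0.0433, limma, adjusted P = 0.971). Dctn1 and Actr1b of dynactin had log2 fold changes of 0.00 (SE 0.05) and 0.01 (SE 0.06).

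The 41 motor adaptors and regulators had 16 lower and 25 higher TG means. App, the amyloid precursor protein, and Clstn1, or calsyntenin-1, a membrane cargo that binds kinesin light chains, were the most abundant, with mean counts of 52422 and 35391 and log2 fold changes of 0.01 and 0.02. Pafah1b1, the dynein regulator Lis1, was at 0.10, Map7d2, which promotes kinesin-1 recruitment to microtubules, at 0.12, and Bicd1, a dynein adaptor, at 0.14 (SE 0.05 for each). Their unadjusted P values were 0.0458, 0.0369 and 0.0254 (limma, adjusted P = 0.971 for each). The list labelled axonal cytoskeleton held 15 genes, some of which, such as Map2, are not confined to axons. It had 3 lower and 12 higher TG means, with Map1a at -0.03 and Sptbn1 at 0.03.

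**Figure D5:**
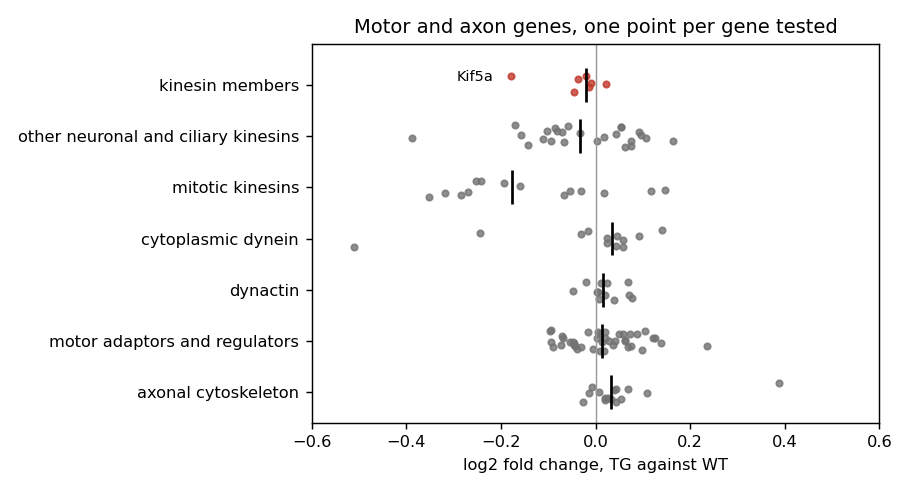
Log2 fold change of TG against WT for each tested gene of the kinesin set (red) and of the 6 transport lists (grey), with 1 point per gene, and a black line at each list's median. Kif5a lies at -0.18, the medians of the other lists lie between -0.03 and 0.03 apart from the mitotic kinesins at -0.18, and no grey point passed the adjusted threshold.

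Markers of cell types were read beside Kif5a. The spiny neuron markers of the striatum were abundant, with Pde10a and Ppp1r1b at mean counts of 39629 and 25045, and no marker in any list was at 0 in all libraries. Summed spiny neuron markers ranged from 153721 to 211978 in TG and from 184192 to 211774 in WT, with TG replicate 1 lowest, and 12 of 14 had negative log2 fold changes. Summed markers of cortical excitatory neurons, led by Slc17a7, Lamp5 and Tbr1, ranged from 35792 to 49680 in TG and from 40947 to 47520 in WT, with TG replicate 2 lowest, and 7 of 12 had negative log2 fold changes. TG replicate 2 was also the library with the lowest Kif5a count. TG replicates 1 and 3, in which Kif5a was also below every WT mouse, had cortical sums of 49680 and 48399, above every WT mouse. In the fit with the summed cortical markers as a covariate, the Kif5a log2 fold change was -0.18. The Kif5a log2 fold change was -0.18 without TG replicate 1 and -0.16 without TG replicate 2.

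Among other neurons, 3 of 10 thalamic markers had negative log2 fold changes. So had 3 of 7 markers listed for the globus pallidus and projecting GABA neurons, a list not confined to pallidal cells. The thalamic sums, led by Plekhg1, Ntng1 and Zic1, ranged from 2607 to 3878 in TG and from 2731 to 2946 in WT. The highest was that of TG replicate 1, in which Zic1 had 1041 counts against 365 to 470 in the other mice. The sums of the pallidal and GABA neuron markers, led by Kcna1, Pvalb and Lhx6, ranged from 10554 to 11341 in TG and from 10169 to 10833 in WT. Most of each of these sums was Kcna1, at a mean count of 8624, so the sum says little about the other markers of that list. Oligodendrocyte markers, among them Mbp and Mobp, ranged in sum from 265631 to 276185 in TG and from 266402 to 302532 in WT, with 8 of 12 log2 fold changes negative. These neuronal and oligodendrocyte sums overlapped between the groups.

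Astrocyte markers, led by Slc1a2, Aldoc and Slc1a3, ranged in sum from 137802 to 146032 in TG and from 136878 to 145072 in WT, with 6 of 10 log2 fold changes negative. Endothelial markers, led by Flt1, Slco1a4 and Abcb1a, ranged from 10613 to 11276 and from 9983 to 11485, also with 6 of 10 negative. Microglial markers, among them Csf1r and Cx3cr1, were the list whose sums moved with the group like Kif5a, from 12610 to 13596 in TG and from 13702 to 14358 in WT, with 10 of 10 log2 fold changes negative. In 5 of the 10 every TG library was below every WT library, a larger share than the 5.05% of all genes. Choroid plexus markers, led by Enpp2, Ttr and Clic6, had 12 of 12 log2 fold changes positive, with a sum of 28963 in TG replicate 1 against 8068 to 9505 in the other 5 mice. Enpp2 made up most of the sum in those 5 mice, at 7487 to 8272 counts. Ttr had 13701, 1122 and 204 counts in TG replicates 1, 2 and 3 and 322, 120 and 432 in the WT mice. For Ttr, TG replicate 2 was thus also above every WT mouse, and TG replicate 3 was within the WT range. The part of these cell types in the Kif5a difference was not tested.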

How the data were processed

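Striatal RNA from 3 TG and 3 WT mice was sequenced by the authors after preparation with the TruSeq RNA v2 kit. They trimmed the reads (Trimmomatic 0.35), aligned them to GRCm38 (TopHat2 2.1.0) and counted them per gene (HTSeq). The deposited signal is a read count per gene after division by a size factor from DESeq2. The annotation release and strand setting were not given in the sources used here. Values came out as whole reads within 0.01 for 100% of entries.

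Identifiers were matched to GENCODE M21 (45143 of 46078). Log2(value + 1) was tested with limma 3.58.1 (R 4.3.3, mean-variance trend) in the 17605 genes whose mean reached 10, and P values were adjusted over all of them (Benjamini-Hochberg). The code was first run on simulated data with the same spread for all genes and larger fold changes than most reported here. That run does not bear on small differences. The fold change understates low genes. The sources do not say whether the mice came from separate litters, so P values measure the spread between these 6 mice. Levels used the union of exons. Alternatives used DESeq2 1.42.0, edgeR 4.0.16, limma-voom, other scalings, filters and pseudocounts (0.5 and 5), the replicate block, a cortical marker covariate and the omission of each library. The study used DESeq2 with P values corrected by an empirical null, and the setting with a prior and an empirical null came nearest to it. DESeq2 was an alternative here because the deposited unit is a normalized signal, and it was run on the recovered whole reads.

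The kinesin genes and all lists were chosen with earlier results of these data known. Named were the kinesin genes, Shank3, in each transport list the 2 most abundant genes and up to 3 in each direction with an unadjusted P under 0.05, the 3 most abundant genes of each marker list (some are not reported here), the 5 genes most correlated with Kif5a, and tested genes within 100 kb of it. Protein sequences were not used here.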

Additional observations from a re-analysis of the deposited data

How the results depend on the processing

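The log2 fold change of Kif5a was negative in all 18 alternatives, from -0.20 to -0.15. Kif5a was chosen for this difference and its groups did not overlap. Leaving out a library could therefore not reverse its sign, and the steady direction supports nothing about Kif5a. The number of kinesin genes called was 0, except 1 (Kif5a) with DESeq2 with a prior and an empirical null, and 0 of the 119 transport genes were called in any alternative. Genes called over the whole table numbered 1 (Shank3), against 7 with DESeq2, 17 with the prior and empirical null, 5 without a filter and 4 with the summed cortical markers as a covariate. Leaving out each library in turn gave 1 to 2, with 2 without TG replicate 2 and without TG replicate 3. The cause of these differences was not tested. For the other kinesin genes the lowest adjusted P over all alternatives was 0.812. With 1 library left out in turn, log2 fold changes ranged from -0.20 to -0.16 for Kif5a, from -0.086 to 0.014 for Kif5b, from -0.086 to -0.00021 for Kif5c (the latter when TG replicate 1 was omitted), from -0.033 to 0.014 for Klc1, from -0.071 to 0.063 for Klc2, from -0.040 to 0.011 for Kif1a and from -0.0078 to 0.046 for Kif1b, so the direction of the genes other than Kif5a and Kif5c, and the size for Kif5c, rests on single mice. The log2 level of Kif1a over Kif5c ranged from -0.0048 to 0.028 with 1 library left out, and with the longest transcript it was 0.14 and that of Kif5c over Klc1 -0.59. With the replicate block 1 gene was called, 1024 against 758 genes had an unadjusted P under 0.05, and Kif5a stayed at -0.18. Same-numbered mice had correlations of 0.20, 0.05 and 0.17 in their deviations. Each WT mouse correlated best with the TG mouse of its number, for WT replicate 2 only by 0.053 against 0.044 with TG replicate 1. TG replicate 2 correlated best with WT replicate 3 (0.15). These values do not settle whether the numbers are pairs. The sources do not describe them as pairs, so the main fit had no block. The 95% intervals of the other 6 kinesin genes together reached from -0.17 to 0.14.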
